A study of Mus musculus with 6 samples.

Results

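Transcripts of 35 genes that act in the germ line, in the piRNA pathway and in meiosis were examined in mouse embryonic stem (ES) cells with a knockout of Zscan5b and in wild type ES cells. The genes were fixed by name, and every non-control probe carrying one of those names in the array files was taken, which gave 41 of the 39429 gene probes, for 35 of the 30222 gene names on the array. Cy3-labelled total RNA was read on Agilent arrays of 1 colour, with 3 Zscan5b knockout arrays and 3 wild type arrays, which the study calls biological replicates. All 6 cultures were held undifferentiated with leukemia inhibitory factor on a feeder layer of mitomycin-inactivated mouse embryonic fibroblasts. The strain, the cell line, the position of the deletion and the number of knockout clones are not given in the sources used here, so the knockout arrays may all stem from 1 clone. The comparison asks which transcripts differ when the zinc finger protein Zscan5b is missing.

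Germ cells use piRNAs, small RNAs bound by PIWI proteins, to silence transposons, and they enter meiosis by building a chromosome axis of cohesins and HORMA-domain proteins on which the synaptonemal complex pairs the homologues. Most of these genes are silent in somatic tissue. In mouse ES cells many are read at some level, and their promoters are held in check by DNA methylation and by a variant Polycomb complex that contains E2f6, Mga, Max, Pcgf6 and L3mbtl2. E2f6 contacts E2F-type sites and the Mga and Max pair contacts the E-box CACGTG.

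Signals are given as log2 of the processed spot signal minus the 75th percentile of the array, so that 0 is the level of a fairly bright probe and each unit is a doubling. Signals of different probes depend on the probe and were not set against each other. Between 64.3% and 68.7% of gene probes were well above background on the knockout arrays and between 67.1% and 70.3% on the wild type arrays. The wild type arrays differed more among themselves (SD of the log2 difference between arrays 0.51 to 0.64) than the knockout arrays (0.33 to 0.40), and the fold changes of the germline genes and of Zscan5b were recomputed without each array in turn. Each genotype was on its own slide and in its own scan, so slide and genotype cannot be told apart. Zscan5b read -4.47, -5.17 and -5.13 in the knockout arrays, against -3.66, -4.03 and -3.12 in the wild type arrays, which was 2.498-fold lower (log2 fold change -1.32) and missed the threshold (limma adjusted p 0.107). The probe was well above background on all 3 knockout arrays but dim, as the lowest such probes there stood at -6.45, -6.09 and -6.03. Whether it lies in the deleted part is not stated. Leaving out wild type replicate 2 brought Zscan5b past the threshold (limma adjusted p 0.0400), where 2520 of all 25917 tested probes passed. Weighting the arrays did so too (0.0448), where 840 of 26645 passed. The log2 fold change of Zscan5b was -0.60 after normexp background correction with quantile normalization. All 14 ES cell markers on the list used here were measured, and they had a median log2 fold change of -0.02. Feeder fibroblast markers stood at a mean of -0.69, -0.19 and -0.54 in the knockout arrays, against -0.65, 1.15 and 0.93 in the wild type arrays (24 of 25 markers tested, 0 called, each centred on its own mean over the arrays). Their median log2 fold change was -0.90, with 23 of 24 below 0. At a limma unadjusted p below 0.05 stood 6 of them, all lower in the knockout (25.0%, against 21.7% of all genes tested). Fibroblasts are another source of RNA in these cultures, and their part in the results was not tested. In such bulk RNA fewer cells of a type and less RNA per cell cannot be told apart.

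Most of the germline genes were read in both genotypes, and none passed the test between them. Of the 35 genes, 29 were well above background on all 6 arrays with at least 1 probe, and these were tested with 35 probes. The remaining 6 were well above background on no array or, for Tdrd1, on 1 array. No probe of the 35 was called by limma at an adjusted p of 0.05, where 0.465% of all 26645 tested probes were called (33 higher and 91 lower in the knockout). Of the 35 probes, 5 had an unadjusted p below 0.05 (4 lower in the knockout, 1 higher), against 21.9% of all tested probes. The groups did not overlap at 5 probes, in Mael, Piwil2, Rpl10l and Tex11, all lower in the knockout, against 29.0% of all tested probes, so the share of these genes with separated groups was below the background.

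Taken gene by gene at the brightest tested probe, 21 of the 29 genes lay above 0 and 8 below it on the log2 fold change scale. Their median was 0.10, beside a median of -0.03 and 46.4% positive over the 20450 genes tested. The excess of positive signs depended on the arrays used. Leaving out wild type replicate 3 gave a median of -0.04 and 13 of 29 positive genes. Without wild type replicate 2 there were 17 positive genes, and without any 1 of the other arrays from 18 to 23. Under a shift of each array to the median of the tested probes 16 of 29 were positive. The genes at the ends of the range were Rpl10l and Mael, lower in the knockout, and Mov10l1 and Stag3, higher in it.

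**Figure D1:**
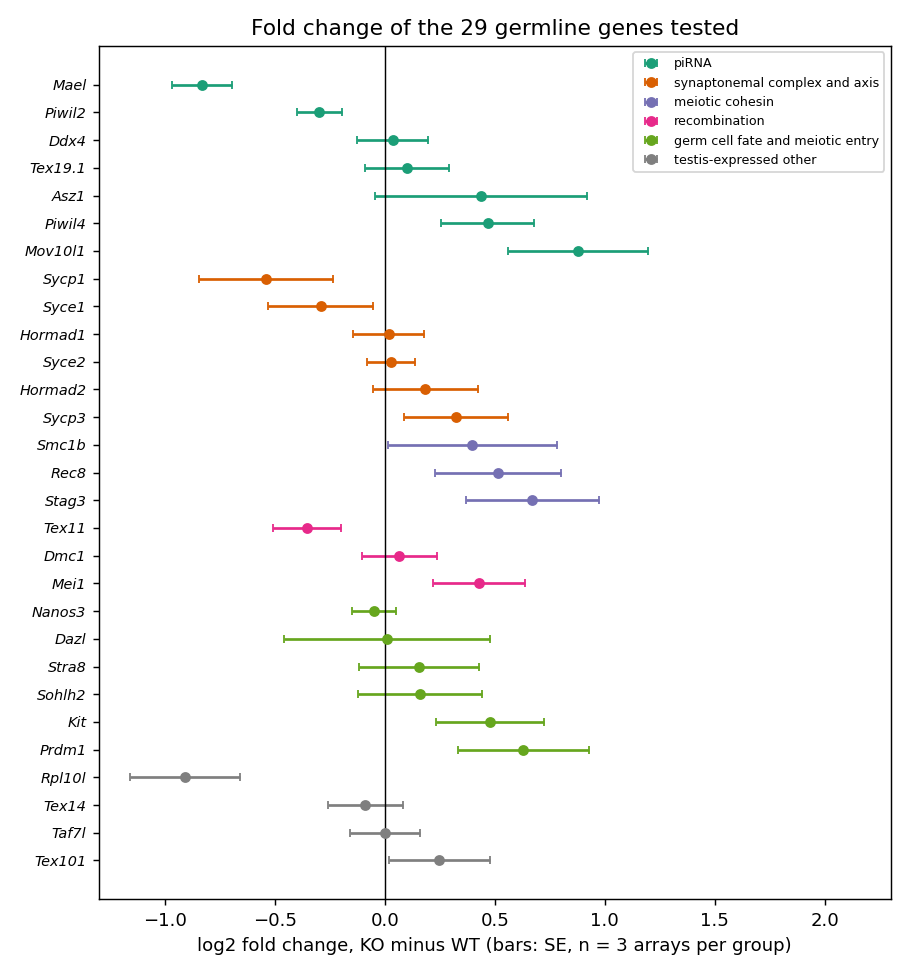
Log2 fold change, knockout minus wild type, of the 29 germline genes tested, grouped by role, with the brightest tested probe of each gene and its SE (3 arrays per group). Rpl10l (-0.91) and Mael (-0.83) lie farthest left and Mov10l1 (0.88) farthest right, and none passed the test.

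Some promoters of these genes hold motifs that their selection did not use, and most hold none of those searched. RefSeq promoter windows on GRCm38.p6 were matched by symbol for 31 of the 35 genes, and the 250 bases before the transcription start were searched on both strands for the E2F-type motif GCGGGAA and the E-box CACGTG, which do not overlap each other in the windows shown. GCGGGAA was present before 7 of the 31 genes (22.6%), against 4.38% of all 27025 genes with a window, and CACGTG before 11 (35.5%), against 6.86%. Either motif stood before 14 genes (45.2%), against 10.8%. Both motifs stood before 4 genes (12.9%), Ddx4, Hormad1, Syce2 and Sycp3, against 0.451% of all genes. A gene with several windows counted as holding a motif if any of its windows held it. The windows of the 31 genes were also richer in CpG, with a median of 14 CG dinucleotides against 6 over all genes, from 0 (Nanos2) to 31 (Ddx4). GCGGGAA and CACGTG each contain a CG. Their shares were not set against those of genes with a like CpG count, so motif and CpG content cannot be told apart here. Among tested genes, the 12 with GCGGGAA or CACGTG had a median log2 fold change of 0.02 (from -0.91 to 0.88) and the 15 with neither had 0.18 (from -0.29 to 0.63). The difference between these sets was not tested. A motif match is a description of the letters and shows no binding.

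The windows of 6 genes are printed, 5′ to 3′ on the strand of the gene, with the motif letters in capitals. Rpl10l and Mael had the largest negative fold changes, Mov10l1 and Stag3 the largest positive ones, and Ddx4 and Hormad1 hold both motifs.
Mael (chr1:166238745-166238994, minus strand): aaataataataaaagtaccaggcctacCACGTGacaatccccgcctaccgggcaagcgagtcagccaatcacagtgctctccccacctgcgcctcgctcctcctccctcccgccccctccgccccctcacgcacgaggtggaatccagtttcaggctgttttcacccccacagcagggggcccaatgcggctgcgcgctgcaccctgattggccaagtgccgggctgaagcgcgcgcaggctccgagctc
Rpl10l (chr12:66284402-66284651, minus strand): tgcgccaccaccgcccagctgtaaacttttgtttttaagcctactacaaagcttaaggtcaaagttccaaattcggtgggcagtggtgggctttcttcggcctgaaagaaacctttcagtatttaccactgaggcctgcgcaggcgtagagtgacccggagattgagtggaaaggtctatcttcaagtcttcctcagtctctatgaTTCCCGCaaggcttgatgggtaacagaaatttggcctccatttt
Mov10l1 (chr15:88982744-88982993, plus strand): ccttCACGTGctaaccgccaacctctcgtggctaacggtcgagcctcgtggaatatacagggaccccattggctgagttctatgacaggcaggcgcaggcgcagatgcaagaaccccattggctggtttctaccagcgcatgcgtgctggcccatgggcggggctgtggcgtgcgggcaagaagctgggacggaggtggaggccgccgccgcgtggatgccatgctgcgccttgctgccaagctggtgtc
Stag3 (chr5:138280259-138280508, plus strand): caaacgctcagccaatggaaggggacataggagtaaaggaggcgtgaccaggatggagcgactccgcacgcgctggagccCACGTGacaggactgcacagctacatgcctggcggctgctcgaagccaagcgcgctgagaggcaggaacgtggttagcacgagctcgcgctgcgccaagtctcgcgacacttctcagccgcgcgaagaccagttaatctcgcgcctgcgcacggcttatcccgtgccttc
Ddx4 (chr13:112652311-112652560, minus strand): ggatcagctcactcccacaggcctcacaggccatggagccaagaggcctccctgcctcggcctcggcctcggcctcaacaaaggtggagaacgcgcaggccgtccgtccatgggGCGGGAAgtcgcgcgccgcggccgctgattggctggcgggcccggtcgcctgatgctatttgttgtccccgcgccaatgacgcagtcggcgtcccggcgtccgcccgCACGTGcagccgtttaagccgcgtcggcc
Hormad1 (chr3:95559427-95559676, plus strand): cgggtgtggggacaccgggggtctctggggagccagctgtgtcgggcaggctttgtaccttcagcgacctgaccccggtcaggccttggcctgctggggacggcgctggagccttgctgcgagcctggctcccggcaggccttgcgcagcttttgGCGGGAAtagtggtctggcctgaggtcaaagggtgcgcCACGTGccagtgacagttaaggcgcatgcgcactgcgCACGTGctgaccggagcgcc
The E-box begins 223 bases before the start of Mael, 246 before that of Mov10l1 and 170 before that of Stag3, and the E2F-type motif of Rpl10l, read on the other strand as TTCCCGC, begins 44 bases before its start. Hormad1, for which 1 of 2 RefSeq windows is printed, has the E-box at 2 places. Mael and Rpl10l, which were both lower in the knockout, carry different motifs, and Mael shares its E-box with Mov10l1 and Stag3, which read higher. None of these genes was called, and a relation between motif and fold change was not tested.

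In the piRNA pathway the largest differences ran in opposite directions. Mael, a factor of the germ granule needed for transposon silencing, read 0.34, 0.38 and -0.03 in the knockout arrays, against 1.05, 1.08 and 1.05 in the wild type arrays (mm9 chromosome 1, 168131583 to 168131642). The groups did not overlap, and the wild type arrays differed by less than 0.05. Mael was 1.78-fold lower (log2 fold change -0.83 ± 0.14, SE, n = 3 per group) with a limma adjusted p of 0.0676, the smallest among these genes. It stayed negative in all 16 alternatives (-0.91 to -0.70, limma adjusted p 0.0411 to 0.247). It passed the test without wild type replicate 2 (-0.82, adjusted p 0.0411), as did 2520 of all 25917 probes tested there. Piwil2, a PIWI protein that binds piRNAs, read -1.49, -1.48 and -1.53 in the knockout arrays, against -1.08, -1.21 and -1.31 in the wild type arrays (chromosome 14, 70772497 to 70772556). The groups were separate but close, with a log2 fold change of -0.30 ± 0.10 (SE, limma adjusted p 0.185).

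Mov10l1, the RNA helicase that starts piRNA production, was the highest in the other direction. It read -2.60, -2.13 and -1.96 in the knockout arrays, against -3.17, -2.51 and -3.65 in the wild type arrays (chromosome 15, 88884717 to 88884776). Wild type replicate 2 lay above knockout replicate 1, so the groups overlapped, and the log2 fold change was 0.88 ± 0.32 (SE, limma adjusted p 0.196). Without wild type replicate 2 it was 1.18 and passed (limma adjusted p 0.0455), as did 2520 of all 25917 probes tested there. Piwil4, the nuclear PIWI protein that directs DNA methylation of transposons, read -4.46, -3.98 and -4.16 in the knockout arrays, against -4.42, -5.05 and -4.53 in the wild type arrays (chromosome 9, 14506802 to 14506861; log2 fold change 0.47 ± 0.21, adjusted p 0.251).

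Other piRNA genes differed less than their arrays did. Ddx4, the VASA helicase that marks germ cells, had a log2 fold change of 0.04 ± 0.16, and Tex19.1, which restrains retrotransposons, had 0.10 ± 0.19 (SE). Asz1, a mitochondrial partner of piRNA processing, spread from -4.53 to -3.53 over the knockout arrays and from -5.41 to -3.66 over the wild type arrays. Of the Tudor-domain proteins that gather PIWI proteins, Tdrd6 and Tdrd9 were not well above background on any array. Tdrd1 read -6.63, -7.96 and -7.77 in the knockout arrays, against -3.00, -7.25 and -8.44 in the wild type arrays. Wild type replicate 1 was the 1 array well above background, so Tdrd1 was not tested.

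Rpl10l, a retrogene copy of the X-linked ribosomal protein gene Rpl10 that serves the ribosome during male meiosis, was lower in the knockout at both of its probes. The brighter probe read 2.99, 2.69 and 2.16 in the knockout arrays, against 3.81, 3.51 and 3.24 in the wild type arrays (chromosome 12, 67384403 to 67384462). The other probe (chromosome 12, 67384868 to 67384927) read 0.59, 0.20 and -0.08 in the knockout arrays, against 1.42, 1.07 and 0.83 in the wild type arrays. Neither probe had overlapping groups, and the fold changes were alike, 1.88-fold lower (-0.91 ± 0.25, limma adjusted p 0.141) and 1.83-fold lower (-0.87 ± 0.22, adjusted p 0.128), with SE and n = 3 per group. The brighter probe was not called in any of the alternatives (adjusted p 0.0833 to 0.368, log2 fold change -1.10 to -0.68). Because Rpl10 is a close relative, its own 3 probes were read beside it: they had log2 fold changes of -0.16, -0.26 and -0.15, smaller than those of Rpl10l, with limma adjusted p from 0.207 to 0.373. These 3 probes were far brighter, with means of 8.14, 8.18 and 8.05 in the knockout and 8.29, 8.43 and 8.20 in wild type. Their groups did not overlap either, with the knockout below wild type at all 3 probes, and 1 had an unadjusted p below 0.05 (0.037). Whether Rpl10 transcripts bind the Rpl10l probes was not tested. If both probes bind Rpl10 their agreement is not independent, so no support is drawn from it. The sequence of the second probe is printed below.
Rpl10l probe: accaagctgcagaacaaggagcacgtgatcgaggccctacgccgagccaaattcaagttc

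**Figure D2:**
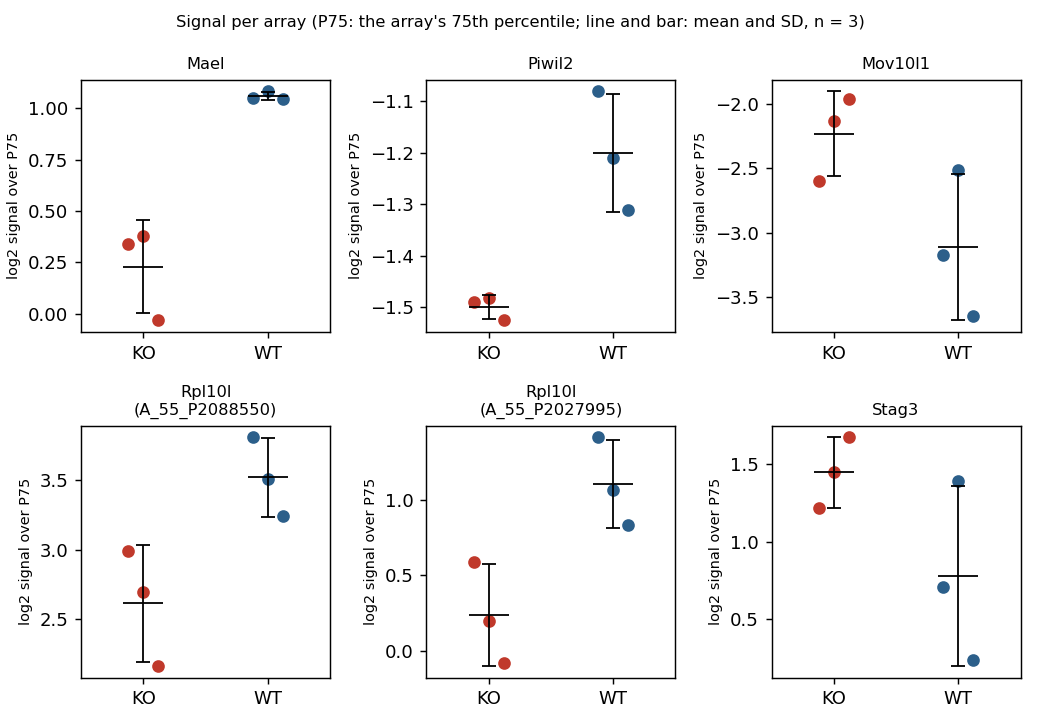
Log2 signal over the 75th percentile of the array for Mael, Piwil2, Mov10l1, both Rpl10l probes and Stag3, with 1 point per array, knockout on the left and wild type on the right, and the mean and SD of 3 arrays. Mael, Piwil2 and Rpl10l have no overlap between genotypes, while Mov10l1 and Stag3 overlap through wild type replicate 2; the vertical axes differ between panels and do not start at 0.

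Genes of the synaptonemal complex and the meiotic axis split in sign. Sycp1, which forms the transverse filaments, read -0.73, -0.74 and -0.93 in the knockout arrays, against 0.13, 0.08 and -0.98 in the wild type arrays (chromosome 3, 102622573 to 102622632). Wild type replicate 3 was the lowest of all 6, and the fold change was -0.54 ± 0.31 on the log2 scale (SE, limma adjusted p 0.332). It was -0.90 without that array, still not called (leave-one-out range -0.90 to -0.35). Sycp3, the lateral element protein, was higher at both probes (0.32 ± 0.24 and 0.37 ± 0.24), with overlapping groups. The central element genes Syce1 and Syce2 had -0.29 ± 0.24 and 0.03 ± 0.11. Of the HORMA-domain proteins that mark unsynapsed axes, Hormad1 had 0.02 ± 0.16 and 0.28 ± 0.20 at its 2 probes and Hormad2 had 0.18 ± 0.24. Sycp2, the partner of Sycp3, was not well above background on any array.

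The 3 meiotic cohesin subunits had a positive log2 fold change, and none was called. Stag3 read 1.22, 1.45 and 1.68 in the knockout arrays, against 0.71, 1.39 and 0.23 in the wild type arrays (chromosome 5, 138753402 to 138753461; log2 fold change 0.67 ± 0.30, SE, limma adjusted p 0.252). Rec8, the kleisin subunit that holds sister chromatids through the first division, read 2.31, 2.48 and 2.62 in the knockout arrays, against 2.08, 2.46 and 1.33 in the wild type arrays (chromosome 14, 56244160 to 56244219; 0.51 ± 0.29, adjusted p 0.331). Smc1b, the meiotic SMC subunit, read 0.76, 1.22 and 1.06 in the knockout arrays, against 0.90, 1.21 and -0.26 in the wild type arrays. In each of the 3 genes wild type replicate 2 lay within the knockout values and replicate 3 was the lowest array. Without wild type replicate 3 the log2 fold changes were 0.40 for Stag3, 0.20 for Rec8 and -0.04 for Smc1b. Without wild type replicate 2 Stag3 was called (0.98, limma adjusted p 0.0460), as were 2520 of all 25917 probes tested there.

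No recombination gene was called, and Dmc1 was close between the genotypes at each of its probes. Dmc1, the meiotic strand exchange protein, had log2 fold changes of 0.06, 0.07 and 0.18 at its 3 probes, with SE from 0.13 to 0.17, so its probes differed from each other by less than their errors. Mei1, needed for double-strand breaks, read -2.88, -2.37 and -2.59 in the knockout arrays, against -2.80, -2.92 and -3.41 in the wild type arrays (chromosome 15, 81957137 to 81957196; 0.43 ± 0.21, limma adjusted p 0.280). Tex11, an X-linked crossover factor, gave different values at its 2 probes. The brighter one read -0.19, -0.07 and -0.07 in the knockout arrays, against 0.54, 0.00 and 0.20 in the wild type arrays (chromosome X, 98034007 to 98034066), with no overlap and a log2 fold change of -0.35 ± 0.16 (adjusted p 0.246). The other, whose 60 bases span 19415 bases of the genome (chromosome X, 98079717 to 98099131), read -4.10, -3.88 and -3.73 in the knockout arrays, against -3.79, -4.08 and -3.91 in the wild type arrays, a log2 fold change of 0.02 ± 0.14. Spo11, the enzyme that makes the breaks, was not well above background on any array.

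Regulators of germ cell fate and meiotic entry gave no call. Prdm1, a repressor that specifies primordial germ cells, read -0.64, -0.75 and -0.82 in the knockout arrays, against -1.52, -0.69 and -1.89 in the wild type arrays (chromosome 10, 44157089 to 44157148; log2 fold change 0.63 ± 0.30, SE, limma adjusted p 0.269). It passed only without wild type replicate 2 (0.97, limma adjusted p 0.0334), the array that lay inside the knockout range. Of all 25917 probes tested without that array, 2520 passed. Kit, the receptor of stem cell factor, read 2.25, 2.39 and 2.47 in the knockout arrays, against 1.94, 2.35 and 1.39 in the wild type arrays (chromosome 5, 76052394 to 76052453; 0.48 ± 0.24, adjusted p 0.297). Stra8, the retinoic acid target that starts meiosis, read 4.09, 4.28 and 4.07 in the knockout arrays, against 4.62, 3.70 and 3.64 in the wild type arrays. The knockout values of Stra8 lay inside the wild type range (0.16 ± 0.27). Dazl, an RNA-binding protein of germ cells, had the widest wild type spread among the tested genes, with -0.37, -0.15 and -0.33 in the knockout arrays, against 0.16, 0.39 and -1.43 in the wild type arrays. Its log2 fold change was 0.01 ± 0.47, and -0.56 without wild type replicate 3. The oogonial and spermatogonial factor Sohlh2 had 0.16 ± 0.28 and Nanos3, which keeps primordial germ cells alive, -0.05 ± 0.10. Nanos2, the male germ cell RNA-binding protein, was not well above background on any array. The remaining testis-expressed genes, the spermatogenic TAF subunit Taf7l (0.00 ± 0.16), the intercellular bridge protein Tex14 (-0.09 ± 0.17) and the surface protein Tex101 (0.25 ± 0.23), had overlapping groups.

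Many of these genes shared a low reading in wild type replicate 3. Of the 29 tested genes, 18 (62.1%) were lower there than on each of the other 5 arrays, against 25.1% of all 20450 genes tested. The median difference of wild type replicate 3 from the mean of wild type replicates 1 and 2 was -0.51 on the log2 scale, against -0.04 over all genes, and 15 of the 29 (51.7%) lay more than 0.5 below, against 10.0% of all genes. Dazl was 1.70 below, Smc1b 1.32, Asz1 1.26 and Sycp1 1.08 below, in the log2 units of the plot of wild type replicate 3, whereas Mael (-0.02), Tex19.1 (0.09) and Syce2 (0.14) were level and Hormad2 (0.71) was above. These counts were chosen after the values were seen. The centred mean of the germline genes was -0.38 in wild type replicate 3, 0.10 in replicate 2 and 0.14 in replicate 1, and that of the feeder markers was 0.93, 1.15 and -0.65 in the same order. Two-cell-like cell markers were at -0.68 in wild type replicate 3, -1.08 in replicate 2 and 0.75 in replicate 1 (centred means of 12 genes tested). The SD among arrays was smaller in the knockout than in wild type for 27 of 29 genes (93.1%), against 72.9% of all genes. The median SD was 0.12 in the knockout and 0.37 in wild type, against 0.13 and 0.21 over all genes. The knockout spread of the germline genes was thus near that of all genes, and their wild type spread was wider.

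**Figure D3:**
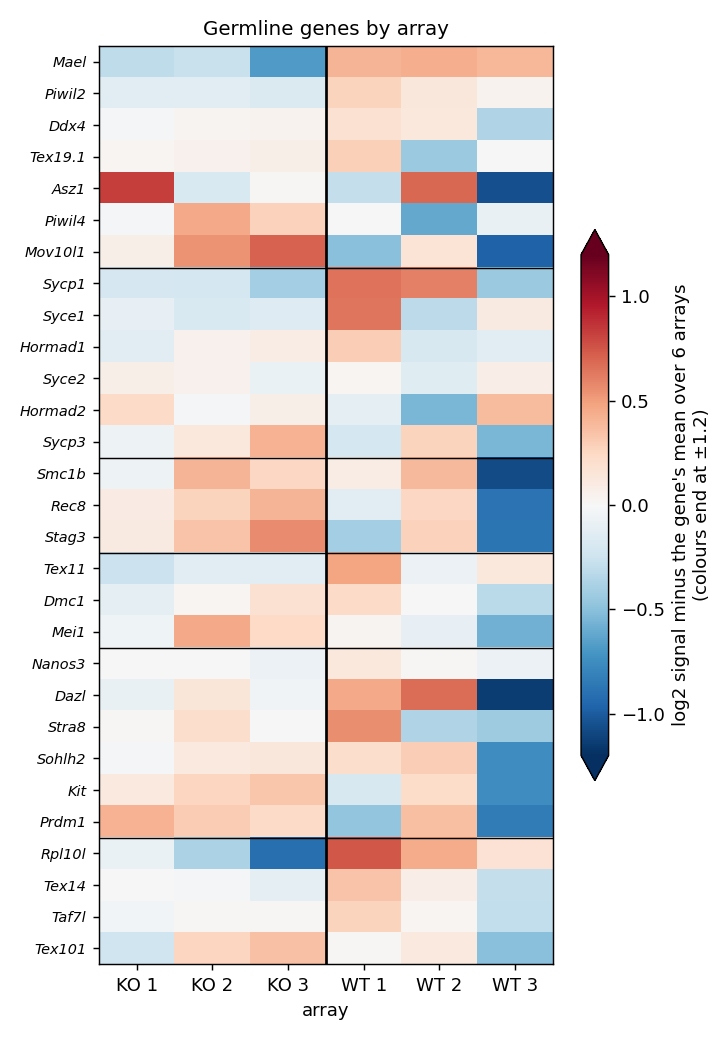
Log2 signal of each of the 29 germline genes minus its mean over the 6 arrays, with knockout arrays on the left of the black line and wild type arrays on the right, and genes grouped by role in the order piRNA, synaptonemal complex and axis, cohesin, recombination, germ cell fate and other. Wild type replicate 3 is the lowest array for 18 genes, and Mael and Rpl10l are low on all 3 knockout arrays.

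**Figure D4:**
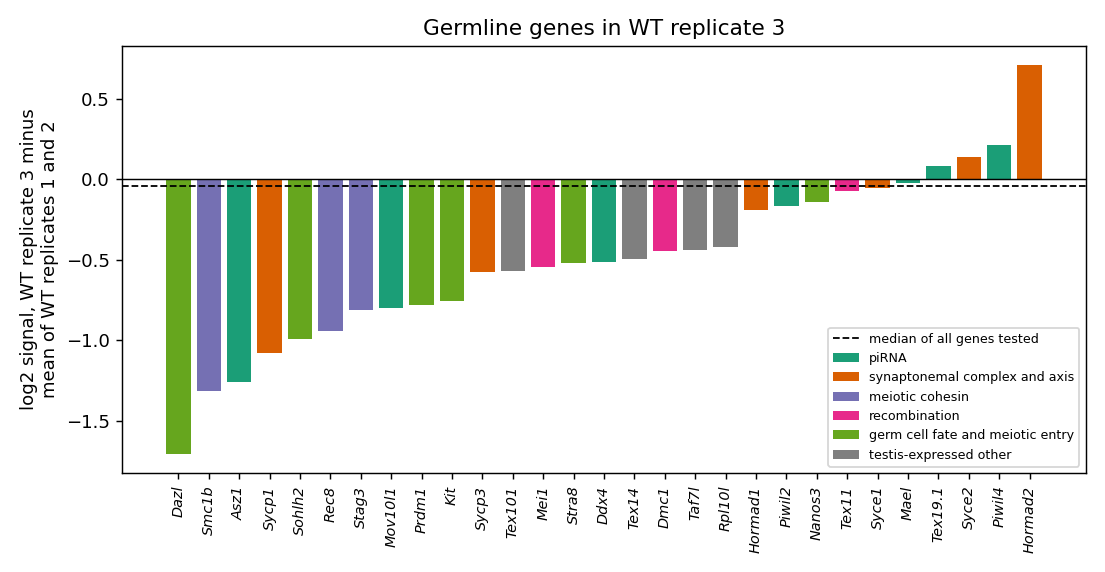
Difference in log2 signal between wild type replicate 3 and the mean of wild type replicates 1 and 2 for each germline gene, coloured by role; the dashed line is the median of all genes tested (-0.04). The bars run from -1.70 (Dazl) to 0.71 (Hormad2).

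Further genes of the same pathways, from lists apart from the 35, were not called either. Calls were few over all 20450 genes tested, with 23 higher and 81 lower in the knockout. Of the other piRNA genes 14 of 16 were tested, 0 were called and 1 had an unadjusted p below 0.05, against 21.7% of all genes tested (median log2 fold change -0.02). Mybl1, the transcription factor of pachytene piRNA genes, had 0.60 ± 0.23 (SE, limma adjusted p 0.205), Fkbp6 had -0.42 ± 0.22 (0.297) and the Tudor protein Rnf17 had -0.32 ± 0.17 (0.307). Of 29 other meiosis genes 28 were tested, with 0 called and 7 at an unadjusted p below 0.05, 3 higher and 4 lower, or 25.0% against 21.7% of all genes (median -0.06). The meiotic cyclin Ccna1 had 1.23 ± 0.29 (adjusted p 0.114), the crossover factors Ccnb1ip1 and Rnf212 had -0.57 ± 0.14 (0.116) and 0.41 ± 0.11 (0.139), and in these 3 genes the groups did not overlap, which held for 9 of the 28 (32.1%) and for 28.9% of all genes. Of 20 germ cell specification and gonocyte genes 16 were tested and 0 called (median 0.20). At a limma unadjusted p below 0.05 stood 3 higher and 1 lower, or 25.0% against 21.7% of all genes. Etv5 had -0.65 ± 0.17 (limma adjusted p 0.134), Zbtb16 had 0.56 ± 0.16 (0.151) and Dmrt1 had 0.44 ± 0.15 (0.183). Of 17 methylation-linked and retrogene germline genes 15 were tested and 0 called (median 0.14). At a limma unadjusted p below 0.05 stood 2 higher and 0 lower, or 13.3% against 21.7% of all genes. Hsf5 had 0.71 ± 0.25 (limma adjusted p 0.186), Tex13 had 1.12 ± 0.39 (0.187) and Tex19.2 had 0.31 ± 0.18 (0.344). Wild type replicate 3 was the lowest wild type array in 13 of these 15, in 20 of the 28 meiosis genes, in 9 of the 14 piRNA genes and in 8 of the 16 specification genes, against 38.3% of all genes.

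None of the repressors of germline genes on the list was called. All 21 were tested and 0 called, beside 23 higher and 81 lower among all 20450 genes tested. Of the 21, 18 lay below 0 and 3 above it. The median log2 fold change was -0.11, against -0.03 over all genes, of which 46.4% lay above 0. The centred means of the 21 repressors were -0.05, -0.11 and -0.15 in the knockout arrays, against 0.20, -0.08 and 0.20 in the wild type arrays. Wild type replicate 2 thus lay inside the knockout range, and it was the lowest wild type array in 14 of the 21. An unadjusted p below 0.05 was found for 4 genes, 3 lower and 1 higher, which was 19.0% against 21.7% of all genes. Pcgf6, the Polycomb subunit of the variant complex, read 1.70, 1.68 and 1.66 in the knockout arrays, against 2.13, 1.91 and 2.09 in the wild type arrays (log2 fold change -0.36 ± 0.10, SE, limma adjusted p 0.146). Dnmt3b, a de novo DNA methyltransferase, read 4.29, 3.90 and 3.54 in the knockout arrays, against 5.62, 4.44 and 6.001 in the wild type arrays at its brightest probe (-1.44 ± 0.42, adjusted p 0.152). Both had separate groups, and the wild type arrays of Dnmt3b spread over more than the gap between the genotypes. Ring1, a Polycomb ubiquitin ligase, had 0.33 ± 0.11 (adjusted p 0.183).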

How the data were processed

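Per the file headers, the deposited scanner tables hold spot intensity from Agilent Feature Extraction 10.7.3.1, which subtracted a spatial trend as background, applied a multiplicative detrend and put surrogate values in place of signals not above background; 10.3.1.1 is the version in the submitters' processing notes. The authors' series table holds log2 values centred on each probe's median over the arrays, with no scaling stated, and served as an alternative.

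Without control spots and flagged outliers, processed signals were converted to log2, spots of a probe were averaged and the 75th percentile of each array was subtracted. Probes well above background on at least 3 of 6 arrays, and unflagged on at least 2 arrays per group, were tested (26645) by a moderated two-sided test (limma 3.58.1, functions lmFit and eBayes, in R 4.3.3) with Benjamini-Hochberg adjustment over all of them. No spot was saturated and no value of the 41 probes was flagged. A gene was represented by its brightest tested probe. The fit was tested on simulated data.

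The genes and lists were chosen with earlier results of these data known. Values per array are given for genes past the test, the 12 genes with the smallest p and genes whose probes differ in sign; from each further list up to 4 called genes or, with none, 3 with the smallest p; others were named after their values were seen. List names were updated through RefSeq (GRCm38.p6, names only). The number of arrays limits the precision.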

Additional observations from a re-analysis of the deposited data

How the results depend on the processing

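There were 16 alternatives, and in some of them part of the outcome was fixed. Dropping the filter, asking for detection on all 6 arrays, the trended and robust prior and the replicate block left each log2 fold change unchanged. The mean over a gene's tested probes had no adjusted p of its own and could move only genes with several probes. With these cases counted, the 29 tested genes kept their direction and their side of the threshold in 431 of 464 cases. They changed direction in 29 and passed the threshold in 4. All 4 arose without wild type replicate 2, where 4 of the 35 germline probes were called (Mael, Stag3, Mov10l1 and Prdm1). In that setting 2520 of all 25917 tested probes were called. In the other alternatives the number of germline probes called was 0 (leave-one-out range 0 to 4), while 0 to 840 of all probes were called. Over all probes, 0 were called under normexp with an offset of 50, without a filter, with detection on all 6 arrays, with a trended and robust prior and with the replicate block; 181 were called after quantile normalization, 231 after the median shift, 840 with array weights, 517 without wild type replicate 1, and 0 without wild type replicate 3 or any knockout array. The number of germline probes at an unadjusted p below 0.05 was 8 under normexp, 13 with array weights and from 3 to 13 on leaving out 1 array. In the main fit it was 5 of 35, against 21.9% of all tested probes. The share of all probes at that p was not computed in the alternatives, so these counts have no background there. Same-numbered arrays correlated in their deviations with r of 0.16, 0.23 and -0.14, and differently numbered arrays with r from -0.32 to 0.21. Deviations within a group of 3 sum to 0, so these values depend on each other. They cannot decide whether the replicate numbers pair the samples. With the replicate block, under which 4 probes had an unadjusted p below 0.05, no call among these genes changed; the adjusted p of Mael was 0.184. The median over the 29 genes ranged from -0.04 to 0.24 on leaving out 1 array.

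Directions turned only in genes with a main log2 fold change of up to 0.40 in size. Dazl was -0.10 under normexp, -0.013 under quantile normalization and -0.045 under the median shift. Taf7l was -0.0055 under normexp and -0.054 under the median shift, where Ddx4 was -0.019, Syce2 -0.025 and Hormad1 -0.037; Hormad2 was -0.0065 with array weights. On leaving out 1 array the ranges were -0.56 to 0.35 for Dazl, -0.14 to 0.13 for Ddx4, -0.037 to 0.076 for Syce2, -0.016 to 0.47 for Stra8, -0.097 to 0.27 for Tex19.1, -0.25 to 0.058 for Tex14, -0.073 to 0.17 for Hormad1, -0.044 to 0.42 for Hormad2, -0.041 to 0.69 for Smc1b, -0.083 to 0.20 for Dmc1, -0.15 to 0.14 for Taf7l, -0.095 to 0.0024 for Nanos3 and -0.17 to 0.35 for Sohlh2. The cause of these changes was not tested. Asz1, Piwil4, Zscan5b, Meiob, Gata4 and the undetected genes lie near background, where signal limits precision.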

Other observations

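Some genes outside the rule for named genes, chosen after their values were seen, had groups that did not overlap, as did 29.0% of all probes tested. Meiob, a meiotic single-strand DNA binding partner, read -5.22, -4.42 and -4.63 in the knockout arrays, against -4.16, -3.82 and -3.83 in the wild type arrays (log2 fold change -0.82 ± 0.23, SE, n = 3 per group, limma adjusted p 0.143). Id4, a marker of spermatogonial stem cells, read -1.51, -1.62 and -1.42 in the knockout arrays, against -2.09, -1.91 and -3.07 in the wild type arrays (0.83 ± 0.30, adjusted p 0.198). Of 10 testis somatic markers 7 were tested, with 0 called, 2 higher and 1 lower at an unadjusted p below 0.05, against 21.7% of all genes tested. Among them Gata4, a transcription factor of gonadal somatic cells that endoderm also expresses, read -3.63, -3.07 and -3.19 in the knockout arrays, against -5.14, -3.80 and -5.06 in the wild type arrays (1.37 ± 0.38, adjusted p 0.143), and Rhox5, an X-linked homeobox gene, had -0.64 ± 0.25 (adjusted p 0.218). Two-cell-like markers had a median log2 fold change of 0.86 over 12 genes tested, with 0 called and 0 at an unadjusted p below 0.05. Their centred means were 0.49, 0.07 and 0.45 in the knockout arrays, against 0.75, -1.08 and -0.68 in the wild type arrays. Wild type replicate 1 thus lay above every knockout array.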
